A study of Schizosaccharomyces pombe with 4 samples.

Results

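Iron acquisition in fission yeast was examined through 10 genes of the 6807 genes measured. They were chosen by name for their role, with earlier results of these data known. They form 3 arms and a pair of regulators. The siderophore arm comprises str3, str1 and sib1, the reductive arm frp1, fio1 and fip1, the vacuolar arm abc3 and pcl1, and the regulators are fep1 and php4. RNA levels were compared between Schizosaccharomyces pombe cells lacking eIF3e, a peripheral subunit of the translation initiation factor eIF3 (int6::kanMX6, the int6 gene replaced by a drug resistance cassette), and wild-type cells, with 2 libraries each. Deletion and wild type alike are of mating type h- and carry the auxotrophic alleles ura4-D18 and leu1-32. The cultures of both grew in rich YES medium. The labels describe 1 deletion genotype and do not say that the replicates were separate cultures or isolates, so every p-value measures the spread between these libraries, which may be technical. In a bulk culture, a transcript made by more cells and more transcript per cell cannot be told apart.

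Iron enters S. pombe by separate routes. In the reductive route a ferric reductase at the cell surface, Frp1, releases ferrous iron, which the ferroxidase Fio1 and the permease Fip1 take up as a complex. In the siderophore route iron is carried as a chelate with ferrichrome, which the Sib enzymes make, through the Str transporters. The vacuole stores iron, and Pcl1 and the ABC transporter Abc3 act at its membrane. Fep1 is a GATA-type repressor that binds GATA elements and keeps uptake genes low when iron is plentiful. Php4 joins the CCAAT-binding complex when iron is scarce and represses genes that store or use iron, pcl1 among them, and php4 is itself repressed by Fep1.

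The deposited features held 28254322 and 16679123 reads in deletion replicates 1 and 2, against 17485020 and 9926548 reads in wild-type replicates 1 and 2. rRNA took 50.4% to 66.4% of the reads of a library. The median protein-coding gene held 273 and 88 reads in the deletion libraries, against 170 and 61 reads in the wild-type libraries. int6 held 1 and 10 reads in deletion replicates 1 and 2, against 504 and 194 reads in wild-type replicates 1 and 2. Even for int6 the edgeR adjusted p was 0.111, at a log2 change of −6.23. Of the mating-type genes of M cells, the type that h- denotes, mfm2 stood between 7.14 and 15.1 CPM over the 4 libraries, mam1 between 4.21 and 9.24, mam2 between 2.11 and 3.94, and mam3 between 0.216 and 0.943, while mfm3 reached at most 0.570 CPM and mfm1 held 0 or 1 read. Of those of P cells, map2 stood between 0.143 and 1.42 CPM and map3 between 0.713 and 2.52 CPM, within the range of the weaker M-cell genes. CPM here is reads scaled to a common library total, normalized between libraries by the trimmed mean of M-values (TMM).

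The sequence before each gene was searched for letters that match the regulators' elements. Windows of 300 bases, from 250 bases before to 50 bases after the annotated RNA start, were read from RefSeq's assembly ASM294v3 for all 10 genes. RefSeq's starts differ from the deposited gene coordinates given below. Those of 6 genes are printed, picked by their RNA levels in these data. str3 (chr1:90240-90539, minus strand), frp1 (chr2:162343-162642, minus strand), fio1 (chr1:4234822-4235121, plus strand) and abc3 (chr2:122392-122691, plus strand) had the 4 highest fitted changes. str1 (chr2:2704407-2704706, plus strand) is the paralogue of str3 that overlapped between the strains, and pcl1 (chr2:165256-165555, minus strand) is the vacuolar gene with a small fitted change. Each runs 5′ to 3′ along its gene. Capitals mark the GATA elements AGATAA and TGATAA and the 9-base elements ATCAGATAA, ATCAGATAT, ATCTGATAA and ATCTGATAT on either strand, and in pcl1 also the CCAAT box. The CCAAT box of fio1, on the strand opposite to the gene, is left in lower case.
str3: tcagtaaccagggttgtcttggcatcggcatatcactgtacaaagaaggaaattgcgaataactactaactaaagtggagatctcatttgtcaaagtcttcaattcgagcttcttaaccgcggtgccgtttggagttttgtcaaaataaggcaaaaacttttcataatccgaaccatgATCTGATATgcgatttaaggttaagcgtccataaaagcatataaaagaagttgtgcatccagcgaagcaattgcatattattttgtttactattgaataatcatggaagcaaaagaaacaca
str1: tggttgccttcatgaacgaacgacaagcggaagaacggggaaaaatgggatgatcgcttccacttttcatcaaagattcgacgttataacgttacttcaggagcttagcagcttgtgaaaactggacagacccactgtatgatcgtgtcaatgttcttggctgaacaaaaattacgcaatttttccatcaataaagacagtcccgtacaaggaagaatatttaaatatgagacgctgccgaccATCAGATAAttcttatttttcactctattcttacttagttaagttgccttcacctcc
frp1: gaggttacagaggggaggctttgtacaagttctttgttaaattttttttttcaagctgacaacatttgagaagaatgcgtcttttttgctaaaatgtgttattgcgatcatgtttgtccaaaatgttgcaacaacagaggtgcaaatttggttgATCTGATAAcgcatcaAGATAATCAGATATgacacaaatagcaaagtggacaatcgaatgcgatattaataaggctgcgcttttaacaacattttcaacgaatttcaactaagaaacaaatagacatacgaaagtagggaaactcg
fio1: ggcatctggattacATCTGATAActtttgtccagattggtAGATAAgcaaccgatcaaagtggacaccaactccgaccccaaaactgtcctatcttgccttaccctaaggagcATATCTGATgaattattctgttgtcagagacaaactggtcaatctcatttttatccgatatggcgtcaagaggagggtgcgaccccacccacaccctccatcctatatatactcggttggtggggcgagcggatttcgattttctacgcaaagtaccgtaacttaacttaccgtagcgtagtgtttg
abc3: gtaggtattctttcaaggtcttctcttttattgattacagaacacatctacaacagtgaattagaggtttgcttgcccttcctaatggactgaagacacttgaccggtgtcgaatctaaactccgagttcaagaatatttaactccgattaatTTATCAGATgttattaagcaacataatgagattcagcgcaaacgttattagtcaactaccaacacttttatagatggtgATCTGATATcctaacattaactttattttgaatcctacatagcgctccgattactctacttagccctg
pcl1: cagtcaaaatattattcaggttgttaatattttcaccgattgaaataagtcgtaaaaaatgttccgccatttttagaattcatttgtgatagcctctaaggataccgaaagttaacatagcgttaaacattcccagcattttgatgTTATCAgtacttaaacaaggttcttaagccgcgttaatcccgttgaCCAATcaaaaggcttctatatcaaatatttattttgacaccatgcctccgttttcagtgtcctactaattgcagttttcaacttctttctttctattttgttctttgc

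The 6-base GATA element (AGATAA or TGATAA, either strand) was found in 8 of the 10 windows, against 44.1% of the 5112 windows of protein-coding genes. str3 and sib1 held none. The 9-base elements, 2 of the 4 of which contain the 6-base element, are a longer form of the Fep1 site and were chosen for the search after the windows had been seen. At least 1 of them lay in 7 of the 10 windows, against 2.13% of those of protein-coding genes and 1.82% of those of all 12605 genes. Only sib1, pcl1 and fep1 among the 10 held none, and of these only the window of pcl1 is printed above. In str3 the single copy, ATCTGATAT, began 72 bases before the start. frp1 had copies at 96 and 75 bases before its start, with a 6-base element within the farther one and another overlapping the nearer one by its last base. fio1 and fip1 are divergent, with 303 bases between their RefSeq starts and 319 by the deposited coordinates. They share the same pair of 9-base elements, at 236 and 137 bases before fio1 and at 76 and 175 bases before fip1. abc3 had copies at 97 and 18 bases, php4 at 36 and 10 bases, and str1 a single copy 7 bases before the start. These distances are from RefSeq's starts. The deposited coordinates start frp1 at 162497, php4 at 1916974 and str1 at 2704645. If both use the same build, the 9-base elements of these genes would lie inside the deposited transcripts. The CCAAT box lay in 5 of the 10 windows, those of fio1, fip1, pcl1, fep1 and php4, against 42.2% of protein-coding windows. In pcl1 it began 58 bases before the start. A match describes letters only and is not evidence of binding.

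**Figure D1:**
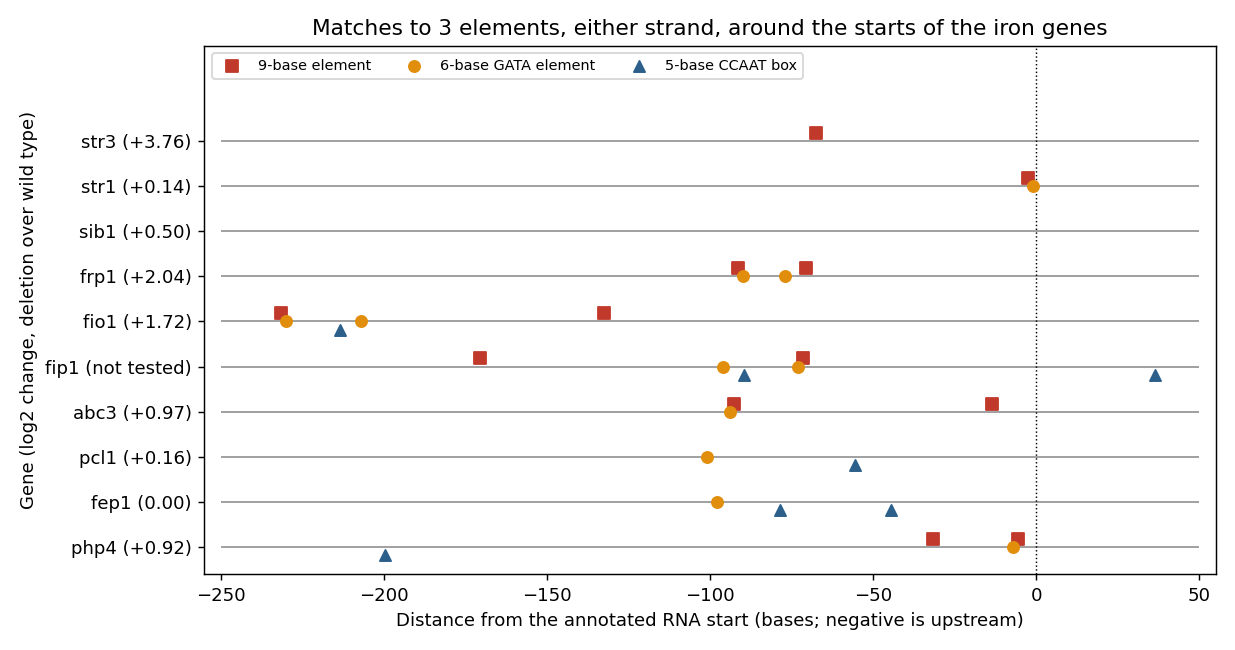
Positions of 9-base elements (squares), 6-base GATA elements (circles) and CCAAT boxes (triangles) on either strand, as bases from RefSeq's annotated RNA start, with each gene's log2 change (deletion over wild type) beside its name. sib1, pcl1 and fep1 have no 9-base element, and str1 and php4 have theirs closest to the start.

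Among the 10 genes the siderophore-iron transporter gene str3 rose in the deletion, and none of the genes tested was called lower. The reductive-uptake genes frp1 and fio1 and the vacuolar gene abc3 lay higher in both deletion libraries without passing the test over all features. Over the 5915 features that passed a filter on low counts, 1 was called higher in the deletion by edgeR's quasi-likelihood test at a Benjamini-Hochberg adjusted p under 0.05, which is 0.0169% of the features, and that 1 is str3. edgeR called 0 features lower, against 314 at an unadjusted p under 0.05, and DESeq2 and limma-voom called 41 and 0 lower. DESeq2 called 0.828% of features higher, str3 and frp1 among them. Of the 10 genes 9 passed the filter, and fip1 did not. Among these 9, 4 were higher at an unadjusted p under 0.05 in edgeR (str3, frp1, fio1 and abc3), where 4.8% of all features tested were. By TMM-normalized CPM, the higher of the wild-type libraries lay below both deletion libraries for 7 of the 9, where that held for 20.1% of features. The reverse order was seen for 0 of them, against 21.4% of features. Of the 7, sib1, pcl1 and php4 overlapped between the strains in the deposited RPKM, a level scaled for transcript length and library total. The fitted log2 changes had a median of 0.92 over the 9 genes and 0.0011 over all features tested. A gene can pass the filter through the strain in which it is high, and the genes were chosen with earlier results known. These counts therefore describe the genes and test nothing.

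**Figure D2:**
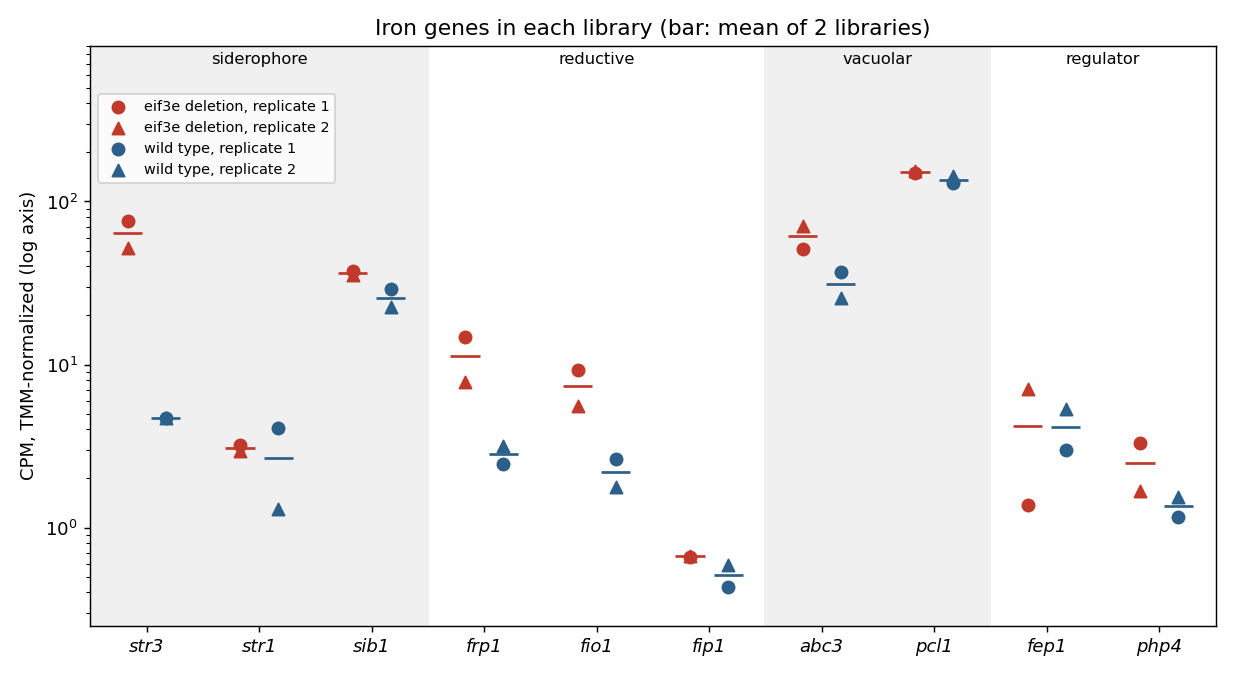
TMM-normalized CPM (log axis) of the 10 iron genes in the 2 eif3e deletion libraries (red, left) and the 2 wild-type libraries (blue, right), with bars at the means. str3 is at 76.0 and 51.9 CPM in the deletion and at 4.72 and 4.72 CPM in wild type, and the points of str1 and fep1 overlap between strains.

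str3 (SPAC1F8.03c, chromosome 1, positions 88201 to 90300, minus strand) encodes a siderophore-iron transporter. It held 2667 and 617 reads in deletion replicates 1 and 2, against 109 and 40 reads in wild-type replicates 1 and 2. As levels these were 76.0 and 51.9 CPM in the deletion and 4.72 and 4.72 CPM in wild type. The deletion libraries differed from each other by more than their counting error, with exact 95% Poisson intervals of 73.2 to 79.0 CPM and 47.9 to 56.2 CPM, yet both stood far above the wild-type libraries. The mean level was 64.0 ± 17 CPM in the deletion and 4.72 ± 0.0006 CPM in wild type (SD, n = 2 each), a ratio of 13.6. The wild-type SD is the closeness of a pair of values resting on few reads, and their intervals ran from 3.87 to 5.69 CPM and from 3.37 to 6.42 CPM. The edgeR log2 change was 3.76 (standard error, SE, 0.31; adjusted p 0.0313). Without wild-type replicate 1 the log2 change was 3.76 and edgeR's adjusted p was 0.137, within a range of 1.43e-18 to 0.137 over all settings tried. Poisson intervals cover counting error only.

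By RPKM, the deposited level scaled for transcript length and library total, str3 stood far higher among protein-coding genes in the deletion. It had 40.9 and 16.6 RPKM in deletion replicates 1 and 2, at or above 90.1% and 86.1% of protein-coding genes, against 2.72 and 1.79 RPKM in wild-type replicates 1 and 2, at or above 35.7% and 36.3%. Among the 10 genes it was second in both deletion libraries, below pcl1, and the third in both wild-type libraries, below pcl1 and abc3. The noncoding RNAs beside it overlapped between the strains. SPNCRNA.604, on the same strand 380 bases away, was at 2.94 and 1.09 CPM in the deletion and 1.90 and 0.943 CPM in wild type. SPNCRNA.605, on the opposite strand 648 bases away, had a log2 change of 0.49 and an edgeR adjusted p of 0.792.

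str1 (SPBC4F6.09, chromosome 2, positions 2704645 to 2707648, plus strand), which encodes a ferrichrome transporter, did not separate the strains. It measured 3.19 and 2.95 CPM in deletion replicates 1 and 2, against 4.07 and 1.30 CPM in wild-type replicates 1 and 2. Both deletion values lay between the wild-type values, whose Poisson intervals of 3.29 to 4.98 CPM and 0.647 to 2.32 CPM do not overlap. The edgeR log2 change was 0.14 (SE 0.59; adjusted p 0.951). Its sign depended on the wild-type library kept, at −0.40 without wild-type replicate 2 and 1.24 without wild-type replicate 1.

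sib1 (SPAC23G3.02c, chromosome 1, positions 854453 to 869704, minus strand) encodes the ferrichrome synthetase, on a transcript of 15022 bases. It was at 37.5 and 35.4 CPM in deletion replicates 1 and 2, against 29.0 and 22.5 CPM in wild-type replicates 1 and 2. The strains did not overlap, but the gap between the nearest libraries was about the size of the gap within wild type. The log2 change was 0.50 (SE 0.25; edgeR adjusted p 0.546). Per length sib1 was a modest transcript, at 2.82 and 1.58 RPKM in the deletion and 2.34 and 1.20 RPKM in wild type. By RPKM the strains overlapped. Further genes of the siderophore route were measured beside these. str2, another siderophore transporter gene, had 4.79 and 1.35 CPM in deletion replicates 1 and 2, against 1.08 and 1.77 CPM in wild-type replicates 1 and 2, so that 1 deletion library was high and the other lay within wild type. The ferrichrome synthesis genes sib2 and sib3 had log2 changes of 0.29 and −0.0048, with edgeR adjusted p of 0.898 and 0.997.

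In the reductive arm, frp1 (SPBC1683.09c, chromosome 2, positions 160357 to 162497, minus strand), the ferric reductase gene, had the largest fitted change after str3 among the 9 genes tested. It held 521 and 93 reads in deletion replicates 1 and 2, against 57 and 27 reads in wild-type replicates 1 and 2. These were 14.9 and 7.83 CPM in the deletion and 2.47 and 3.18 CPM in wild type, so even the lower deletion library was more than the higher wild-type library, by a margin beyond their Poisson intervals (6.32 to 9.59 CPM and 2.10 to 4.63 CPM). The mean was 11.3 ± 4.97 CPM in the deletion and 2.82 ± 0.507 CPM in wild type (SD, n = 2 each), a ratio of 4.02. In edgeR the log2 change was 2.04 (SE 0.42; adjusted p 0.213), which did not pass in this fit. DESeq2's adjusted p was 0.0149, and the alternatives spanned 0.000856 to 0.563.

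fio1 (SPAC1F7.08, chromosome 1, positions 4235080 to 4237874, plus strand), the ferroxidase gene, was higher in both deletion libraries and did not pass in this fit. It measured 9.26 and 5.56 CPM in deletion replicates 1 and 2, against 2.64 and 1.77 CPM in wild-type replicates 1 and 2. The libraries of the strains did not overlap, and deletion replicate 1 was the higher of its pair, as for str3 and frp1. The mean was 7.41 ± 2.62 CPM in the deletion and 2.20 ± 0.615 CPM in wild type (SD, n = 2 each). The log2 change was 1.72 (SE 0.43; edgeR adjusted p 0.277), and the alternatives spanned 0.0123 to 0.625.

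fip1 (SPAC1F7.07c, chromosome 1, positions 4232998 to 4234760, minus strand), the permease gene that faces fio1 across the shared upstream region, was the weakest of the 10 in every library by RPKM. It held 23 and 8 reads in deletion replicates 1 and 2, against 10 and 5 reads in wild-type replicates 1 and 2. As levels these were 0.656 and 0.673 CPM in the deletion and 0.433 and 0.590 CPM in wild type. All 4 Poisson intervals overlap, the narrowest running from 0.416 to 0.984 CPM, so a difference was not detectable at this depth. Fitted without the filter, its log2 change was 0.40 with an edgeR adjusted p of 0.939. The second ferric reductase gene, frp2, was not tested either, with 4 and 2 reads in the deletion and 5 and 2 reads in wild type.

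In the vacuolar arm, abc3 (SPBC359.05, chromosome 2, positions 122657 to 127461, plus strand) encodes an ABC transporter of the vacuolar membrane. It measured 51.3 and 71.2 CPM in deletion replicates 1 and 2, against 37.0 and 25.5 CPM in wild-type replicates 1 and 2. The strains did not overlap, and here deletion replicate 2 was the higher of its pair. The mean was 61.2 ± 14.1 CPM in the deletion and 31.2 ± 8.15 CPM in wild type (SD, n = 2 each), a ratio of 1.96. In edgeR the log2 change was 0.97 (SE 0.30; adjusted p 0.357). The features SPNCRNA.1312, SPNCRNA.1313 and SPNCRNA.294 overlap abc3, and their reads were few beside its own. The antisense SPNCRNA.1312 had 0 and 9 reads in the deletion and 20 and 2 in wild type, the antisense SPNCRNA.1313, which overlaps 80 bases, 45 and 14 against 5 and 6, and the same-strand SPNCRNA.294 at most 6.34 in any library. Whether strand was used in counting is not stated, so reads of abc3 and of its antisense features cannot be told apart in the shared bases.

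pcl1 (SPBC1683.10c, chromosome 2, positions 163534 to 165317, minus strand), the vacuolar iron importer gene, was the most abundant of the 10 in every library. It stood at 150.4 and 153.9 CPM in deletion replicates 1 and 2, against 129.3 and 142.7 CPM in wild-type replicates 1 and 2. Both deletion libraries were higher, but by less than the spread within wild type when the nearest libraries are compared. The log2 change was 0.16 (SE 0.25; edgeR adjusted p 0.875). Per length it had 95.3 and 57.9 RPKM in the deletion and 87.8 and 63.8 RPKM in wild type, at or above 95.8% to 96.6% of protein-coding genes. These RPKM values overlap between the strains. An antisense RNA, SPNCRNA.100, overlaps it by 203 bases and had 26 and 0 reads in the deletion and 3 and 0 in wild type.

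The regulators were scarce transcripts and did not pass. fep1 (SPAC23E2.01, chromosome 1, positions 442201 to 445721, plus strand) had 1.37 and 7.1 CPM in deletion replicates 1 and 2, against 2.98 and 5.31 CPM in wild-type replicates 1 and 2. The lowest and the highest of the 4 values were both from the deletion, with Poisson intervals of 1.01 to 1.81 CPM and 5.64 to 8.75 CPM, and wild type lay between them. The log2 change was −0.0005 (SE 0.69; edgeR adjusted p 1.00), and it was −1.56 without deletion replicate 2 and 0.81 without deletion replicate 1. php4 (SPBC16E9.01c, chromosome 2, positions 1915375 to 1916974, minus strand) had 3.31 and 1.68 CPM in deletion replicates 1 and 2, against 1.17 and 1.53 CPM in wild-type replicates 1 and 2. Deletion replicate 1 stood above the rest, whereas deletion replicate 2, at 20 reads, could not be told from wild type, with an interval of 1.03 to 2.60 CPM. The log2 change of php4 was 0.92 (SE 0.63; edgeR adjusted p 0.689), and without deletion replicate 1 the log2 change was 0.34.

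The deletion libraries differed from each other in several of these genes. Deletion replicate 1 over replicate 2 was 1.90-fold for frp1, 1.67-fold for fio1, 1.46-fold for str3 and 1.96-fold for php4, and 0.194-fold for fep1 and 0.720-fold for abc3. On the log2 scale the gap was −2.29 for fep1 and 0.93 for php4, while the median absolute gap over all 5915 features was 0.433 in the deletion and 0.392 in wild type. Wild-type replicate 1 over replicate 2 was 0.563-fold for fep1 and 0.762-fold for php4. Residual rRNA took 55.5% of the reads of deletion replicate 1 and 66.4% of those of deletion replicate 2, against 50.4% and 58.7% in wild-type replicates 1 and 2, and its part in these gaps was not tested.

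**Figure D3:**
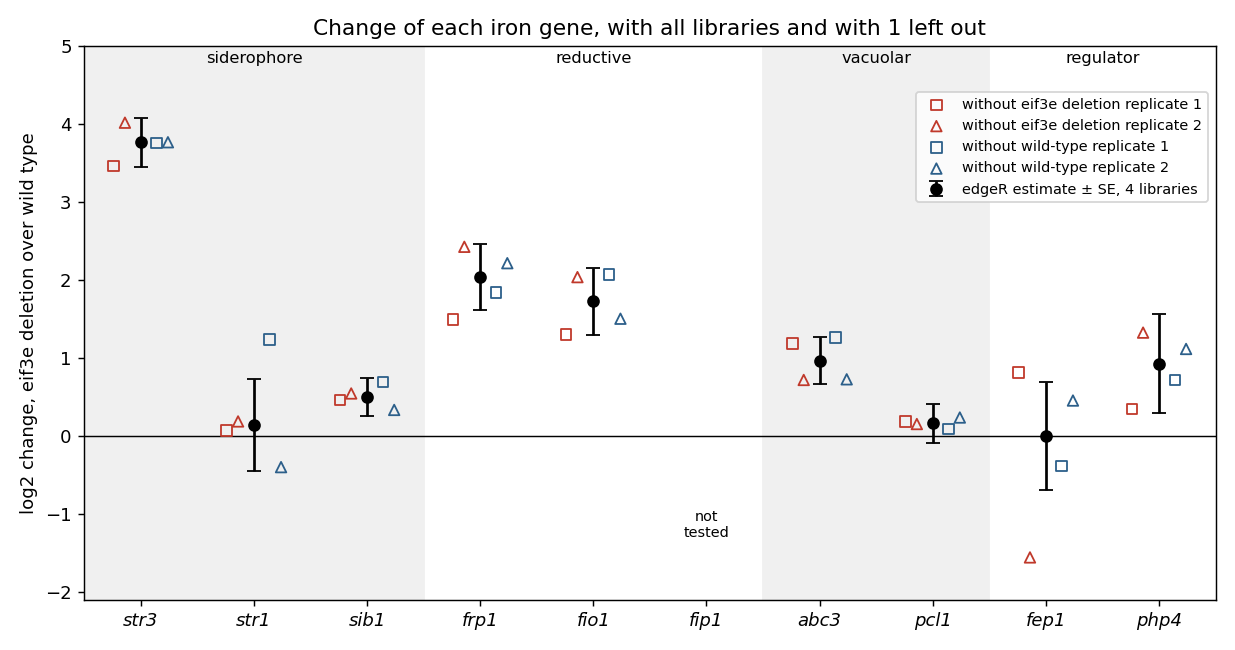
log2 change (deletion over wild type) of each gene tested: edgeR estimate ± standard error from 4 libraries (black) and the estimates with 1 library left out (open symbols). str3 stays between 3.46 and 4.02, whereas fep1 runs from −1.56 to 0.81 and str1 from −0.40 to 1.24.

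By arm, the fitted log2 changes ran from 0.14 to 3.76 in the siderophore arm (3 genes, median 0.50). They were 1.72 and 2.04 for the reductive genes tested, and 0.16 and 0.97 for the vacuolar genes. The ranges of the siderophore and vacuolar arms overlap, and both reductive values lie within the siderophore range. The reductive gene left out, fip1, had a log2 change of 0.40 when fitted without the filter, between the vacuolar values. Differences between arms were not tested. Within each arm and for the regulators, 1 pair of genes was compared in each library, 4 pairs in all, as differences in log2(CPM + 0.1), which do not depend on scaling between libraries beyond the pseudocount. With 2 libraries against 2 the smallest two-sided p of the exact permutation test is 0.33, so no pair could pass. str3 exceeded str1 by 4.53 and 4.09 in deletion replicates 1 and 2, against 0.21 and 1.79 in wild-type replicates 1 and 2. The strain difference was 3.32 on the log2 scale, higher in both deletion libraries (exact permutation p 0.33, adjusted over the 4 pairs 0.44). fio1 exceeded its divergent neighbour fip1 by 3.63 and 2.87 in the deletion, against 2.36 and 1.44 in wild type, a strain difference of 1.35 with the same p. fip1 rests on 5 to 23 reads, which limits this contrast.

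Within the vacuolar arm abc3 minus pcl1 was −1.55 and −1.11 in deletion replicates 1 and 2, against −1.80 and −2.48 in wild-type replicates 1 and 2. abc3 thus lay nearer to pcl1 in both deletion libraries, by a mean of 0.81 on the log2 scale (exact permutation p 0.33, adjusted 0.44). For the regulators, php4 minus fep1 was 1.21 and −2.01 in the deletion, against −1.28 and −1.73 in wild type. The sign changed between the deletion libraries, and the exact permutation p was 1.00.

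**Figure D4:**
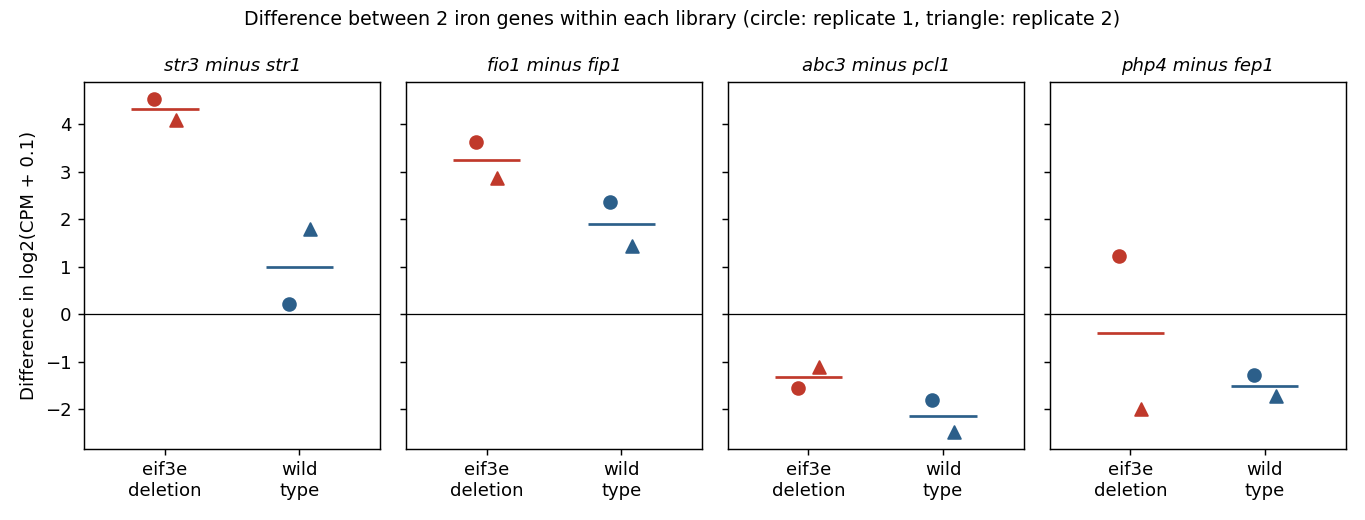
Difference in log2(CPM + 0.1) between 2 genes within each library, in the eif3e deletion (red, left) and wild type (blue, right), with bars at the means. The strains do not overlap for str3 minus str1, fio1 minus fip1 and abc3 minus pcl1, and they overlap for php4 minus fep1, at 1.21 and −2.01 in the deletion.

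Partners of the regulators were measured next, 7 genes of which 6 were tested and 0 passed in either direction in edgeR. With 0.0169% of all features called higher and 0.0% lower, a count of 0 in this or a later list does not set the list apart from other genes. grx4, the glutaredoxin gene whose product binds Fep1 and Php4, was at 27.5 and 20.3 CPM in deletion replicates 1 and 2, against 15.5 and 14.9 CPM in wild-type replicates 1 and 2 (log2 change 0.66, edgeR adjusted p 0.479). Its partner gene fra2 had a log2 change of 0.25. The subunit genes of the CCAAT-binding complex php2 and php5 had log2 changes of 0.43 and 0.07. php3 was not tested, with 29 and 9 reads in the deletion against 3 and 2 in wild type. The corepressor genes tup11 and tup12 had log2 changes of −0.42 and −0.22.

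Of 6 other genes of iron acquisition 4 were tested and 0 passed. Beyond str2, sib2, sib3 and frp2, described above, these were mrs3, the mitochondrial iron carrier gene, at 1.88 and 8.08 CPM in the deletion and 6.06 and 1.89 CPM in wild type, and shu1, the haem uptake gene. shu1 had 2 and 4 reads in the deletion and 0 and 0 in wild type, too few to compare.

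Genes that use iron, or that build its cofactors, were measured in 3 lists. Of 15 genes for iron-requiring proteins 0 were called higher and 0 lower by edgeR, with a median log2 change of 0.09. The 3 most abundant were ilv3, a dihydroxyacid dehydratase gene, glt1, the glutamate synthase gene, and leu2, the isopropylmalate isomerase gene, with log2 changes of 0.24, 0.09 and 0.15. Of 10 genes for iron-sulfur cluster assembly 0 passed in either direction, with a median of 0.14. ssc1, grx5 and nfs1, the 3 most abundant, had log2 changes of 0.13, 0.57 and −0.27. Of 7 haem synthesis genes 0 passed, with a median of 0.35, and hem14, hem2 and hem12, the 3 most abundant, had log2 changes of 0.09, −0.04 and 0.47. The median over all features tested was 0.0011.

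The 9-base element was also traced beyond the 10 genes. Of other protein-coding genes with at least 1 copy in the window 95 were tested, the deleted int6 among them, with 2 copies. The other 94 had a median log2 change of 0.20 (quartiles −0.19 and 0.54), and 0 were called. The libraries of the deletion were both the higher for 29 of them, 30.9%. The 4681 protein-coding genes without a copy had a median of 0.03 (quartiles −0.29 and 0.35), with 21.5% above. Among the iron genes tested, the 6 with a copy had a median of 1.34 and the 3 without had a median of 0.16. Of these 6, str1 did not separate the strains. Of the 3 without, fep1 ran from −1.56 to 0.81 with a library left out. The element was chosen after the windows had been seen, and the 10 genes with earlier results of these data known. The split therefore describes these genes and tests nothing. The iron carrier gene mrs3 is among 12 further tested genes with 2 or more copies, int6 left out after its values were seen, whose median was 0.18.

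The other features within 1000 bases of the iron genes, or overlapping them, numbered 20. Of these 14 were tested and 0 were called, where 0.0169% of all features were called higher and 0.0% lower, with a median log2 change of 0.38 and a range of −0.32 to 1.53. The largest was that of SPNCRNA.1313, antisense to abc3. ght4, a hexose transporter gene near frp1, had a log2 change of 0.62, and the tRNA gene SPATRNAVAL.01 near fep1 had −0.0062.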

How the data were processed

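Total RNA of 2 eif3e deletion and 2 wild-type libraries had its rRNA removed, was cleaved with RNase III and was read on a SOLiD 4 sequencer, per the labels' protocols. Per the submitters' processing notes, TopHat 1.4.1, Bowtie 1.1.0, Partek 6.0 and SAMtools were used, in no stated role. The genome build, annotation and treatment of strand were not given in the sources used here. The deposited table gives, per the file headers, estimated counts of reads per transcript, not normalized, of which 89.6% to 91.9% were whole within 1e-06, and RPKM scaled by the authors for the transcript length, in bases as deposited, and the library's reads. Coordinates of genes are those of the table, with the end 1 base before its stop.

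Of 6808 features 6636 matched RefSeq's gene table (ASM294v3), used for names and windows only. Counts were rounded and tested with edgeR 4.0.16 (R 4.3.3): TMM, filterByExpr, quasi-likelihood F test, strain as the only term, two-sided, Benjamini-Hochberg over 5915 features, threshold 0.05. DESeq2 1.42.0, limma-voom (limma 3.58.1), RLE normalization, no filter, removal of rRNA features, a replicate block and each library left out were alternatives. The edgeR step was tested on simulated data with a common dispersion of 0.111 for all features. It recovered 4.67% of 2-fold, 67.3% of 4-fold and 95.3% of 8-fold changes at an adjusted p under 0.05. Changes of 2-fold were thus mostly missed in this simulation. In the real fit str3 passed with an estimate of 3.76 on the log2 scale. Larger estimates for tlh1 (4.64) and int6 (−6.23) missed the threshold, both with adjusted p 0.111 in edgeR. The simulated shares therefore cannot be read as the recovery reached in these libraries, where it may be lower. Promoter windows, exact tests and plots used scipy 1.17.1, pandas 2.3.3 and matplotlib 3.10.9 under Python 3.11.15. Named were the 10 genes, int6, all genes of the lists of iron acquisition and regulator partners, and the 3 most abundant of each other list. Of the neighbours within 1000 bases some were named and the rest only counted. The genes and lists were chosen with earlier results of these data known. The marker gene mam3 was listed with P-cell genes at first and is described with those of M cells, where it belongs.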

Additional observations from a re-analysis of the deposited data

How the results depend on the processing

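str3 was the 1 feature called higher, and 0 were called lower, with TMM, with RLE, with limma-voom and without rRNA features. Without the filter on low counts there were 15 higher and 5 lower, and the median of the iron genes was 0.71. Without rRNA features that median was 0.72. Both of these fits include fip1. So do the fits below that leave out wild-type replicate 1, wild-type replicate 2 or deletion replicate 2. Medians with and without fip1 are thus of different gene sets. DESeq2 called 49 higher and 41 lower, 2 of them iron genes (str3 and frp1). A replicate block in edgeR gave 88 calls of higher and 105 of lower, with 3 iron genes: str3, frp1 (adjusted p 0.0296) and fio1 (adjusted p 0.0422). The titles give same-numbered libraries of both strains a shared prefix, which may mark a batch, but no label says what it marks. The deviations of same-numbered libraries from their strain means correlated at 0.238. With 2 libraries per strain the deviations of replicate 2 mirror those of replicate 1. The correlation is therefore a single value and cannot tell whether a batch was shared. When 1 library was omitted, the single one remaining of its strain was assumed to vary like the other strain. The calls then ran from 0 to 70 higher and from 0 to 172 lower, those of iron genes from 0 to 3 higher, and the median of the iron genes from 0.63 to 0.98. The count of 0 higher came without wild-type replicate 1, where edgeR gave 215 higher features at an unadjusted p under 0.05, and the count of 3 without deletion replicate 2, where frp1 and fio1 passed. fep1 ran from −1.56 to 0.81 and str1 from −0.40 to 1.24 with a library left out, and DESeq2 gave fep1 0.012. The cause was not tested. The pair contrasts of str3, fio1 and abc3 kept their sign under each alternative, including RPKM and a pseudocount of 1. In these pairs the strains did not overlap, so leaving out a library could not change the sign. RPKM differs from CPM by scaling for length and library total, which nearly cancels in these contrasts. Neither alternative thus tests the sign. For php4 minus fep1 the contrast was −0.50 without deletion replicate 1, against 1.11 with all libraries. The depth, with a median of 61 to 273 reads per protein-coding gene in a library, limits the weak genes.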

Other observations

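Next to fip1, on the opposite strand and 440 bases away, the feature hsp3105 was listed with 95.8 and 6.22 reads in deletion replicates 1 and 2, against 0 and 1.80 reads in wild-type replicates 1 and 2. Its values are fractions of reads in 3 libraries, so its level is uncertain. It did not pass the filter on low counts.

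SPNCRNA.1313, antisense to abc3, measured 1.28 and 1.18 CPM in deletion replicates 1 and 2, against 0.216 and 0.707 CPM in wild-type replicates 1 and 2, with a log2 change of 1.53 and an edgeR adjusted p of 0.671. bio2, the biotin synthase gene, and arh1, the adrenodoxin reductase gene of iron-sulfur cluster assembly, were named after their values were seen. bio2 was at 27.1 and 21.8 CPM in the deletion and 16 and 12.1 CPM in wild type, and arh1 at 24.7 and 16.3 CPM in the deletion and 11.2 and 13.2 CPM in wild type. Their edgeR adjusted p were 0.403 and 0.470.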
